A study of Mus musculus with 11 samples.

Results

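The genes described here build, cut and crosslink the extracellular matrix, the mesh of proteins and sugar chains around cells. They were chosen by name: 8 matrix metalloproteinases, 4 of their inhibitors (the Timp genes), 15 Adamts proteases, the procollagen proteinase Bmp1, 4 lysyl oxidases, the transglutaminase Tgm2, the plasminogen activators Plat and Plau, and the serpin Serpine2, which makes 36 of the 48709 genes in the count tables. RNA was measured in primary hippocampal neurons, cultured from pooled hippocampi of E17 embryos of CD1 mice and carrying glia as well as neurons. Lipid nanoparticles with a synthetic mimic of miR-181a-5p were given to 5 samples and nanoparticles with a negative control oligonucleotide to 6, in both cases on day 10 in vitro, and cells were harvested after 48 hours, on day 12. The study's methods state that ApoE4, a form of the lipid carrier apolipoprotein E, was added to both groups in its sequencing experiments. Nothing in the labels says whether the samples of a group came from separate cultures, so the p-values measure the spread between these samples, which may be technical.

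Matrix metalloproteinases are zinc proteases that cut collagens, laminins, proteoglycans and other proteins at the cell surface, and the Timp proteins bind and block them. Adamts proteases are secreted relatives, some of which cut the proteoglycans of the brain matrix while others trim procollagens so that collagen can assemble. Lysyl oxidases and transglutaminases then join matrix proteins by covalent bonds. In the hippocampus, tissue plasminogen activator and several metalloproteinases are known for their part in synaptic plasticity, and the matrix around neurons is rich in the proteoglycans that Adamts proteases cut.

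A microRNA pairs with messenger RNAs through its seed, bases 2 to 8, and its sites lie for the most part in the untranslated stretch after the stop codon (3′ UTR). The oligonucleotides that defined the groups are shown first, with the seed in capitals, because the seed sets which members could pair. The mimic was identical to the mature mouse miR-181a-5p of RefSeq (GRCm38.p6), which lies at chr1:137966468-137966490 (+) in Mir181a-1 and at chr2:38852741-38852763 (+) in Mir181a-2.
miR-181a-5p mimic: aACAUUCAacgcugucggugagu
negative control oligonucleotide: uCACCGGGuguaaaucagcuug

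The complement of the mimic's seed, TGAATGT, was searched on the transcript strand, taking for every gene its longest 3′ UTR among protein-coding transcripts (GENCODE M21, GRCm38). It was found in 11 of the 36 members (30.6%) and in 2676 of the 14489 tested genes with a 3′ UTR (18.5%). Members had longer 3′ UTRs, with a median of 1863 bases against 1201 over the tested genes. The complement of the control oligonucleotide's seed, CCCGGTG, was found in 1 member, Mmp15 (2.78%), and in 2.87% of the tested genes. Matching members that the study lists among its predicted targets of miR-181a-5p were Timp3, Adamts1, Adamts5, Adamts6, Adamts18, Lox and Plau. Mmp14 is on that list and held no match in this window, and Mmp16, Timp2, Adamts9 and Adamts20 held a match and are not on it. The sites below are examples from the genes that the list and the seed have in common, with Timp2 added as the most abundant member. Capitals mark the match, and in Timp3, Adamts5, Adamts18 and Plau it is followed by an a, the form called an 8-mer site, which Lox also holds.
Timp3 3′ UTR, match at chr10:86349416-86349422 (+): tttatattccgTGAATGTatattgtcttg
Adamts1 3′ UTR, match at chr16:85794464-85794470 (-): tcgtatcctggTGAATGTctgttcagctc
Adamts5 3′ UTR, match at chr16:85862347-85862353 (-): acacacaatgaTGAATGTagaatcgggga
Adamts6 3′ UTR, match at chr13:104495203-104495209 (+): taggttgttggTGAATGTgctttgtgtca
Adamts18 3′ UTR, match at chr8:113697625-113697631 (-): agcttctttgaTGAATGTacactcaaatt
Plau 3′ UTR, match at chr14:20843111-20843117 (+): gatgctccacgTGAATGTatcattcccgg
Timp2 3′ UTR, match at chr11:118302250-118302256 (-): ctggtagcctgTGAATGTtccttttgtaa

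Total counts per sample ran from 17287168 to 48091231, with control replicate 1 the deepest and control replicate 5 the shallowest. The test took in the 17365 genes that reached 5 counts in 50% of the samples or more, and all 36 members were among them. Levels are given as CPM, counts relative to a TMM-scaled library size. The summed CPM of 11 neuron markers lay between 9491 and 9724 in controls and between 9072 and 9379 with the mimic. That of 9 astrocyte markers lay between 4902 and 5341 in controls and between 4497 and 4814 with the mimic, so both cell types named for these cultures were present.

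Of the 36 members, 3 were higher with the mimic by edgeR's quasi-likelihood test (adjusted p under 0.05, called hereafter) and 0 were lower. The 3 were the collagen-crosslinking enzyme Loxl2 at 1.41-fold, the transglutaminase Tgm2 at 1.83-fold and the procollagen N-proteinase Adamts2 at 1.19-fold. Among all tested genes 2.85% were called, 1.08% as higher and 1.77% as lower, so that 8.33% of the members stood against 1.08% in the higher direction. The members were chosen with earlier results of these data known, so this contrast cannot serve as a test of enrichment. At an unadjusted p under 0.05, 9 members were higher and 1 was lower, against 7.30% and 8.41% of all tested genes. The values of the groups did not overlap for 3 members, Loxl2, Adamts2 and Mmp11, all higher with the mimic, against 1.16% of all tested genes that were higher without overlap and 1.73% that were lower. DESeq2 called the same 3 members and 0 lower ones. The median log2 fold change of the members was 0.051 and that of all tested genes was -0.00015, and 24 of the members were above 0.

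**Figure D1:**
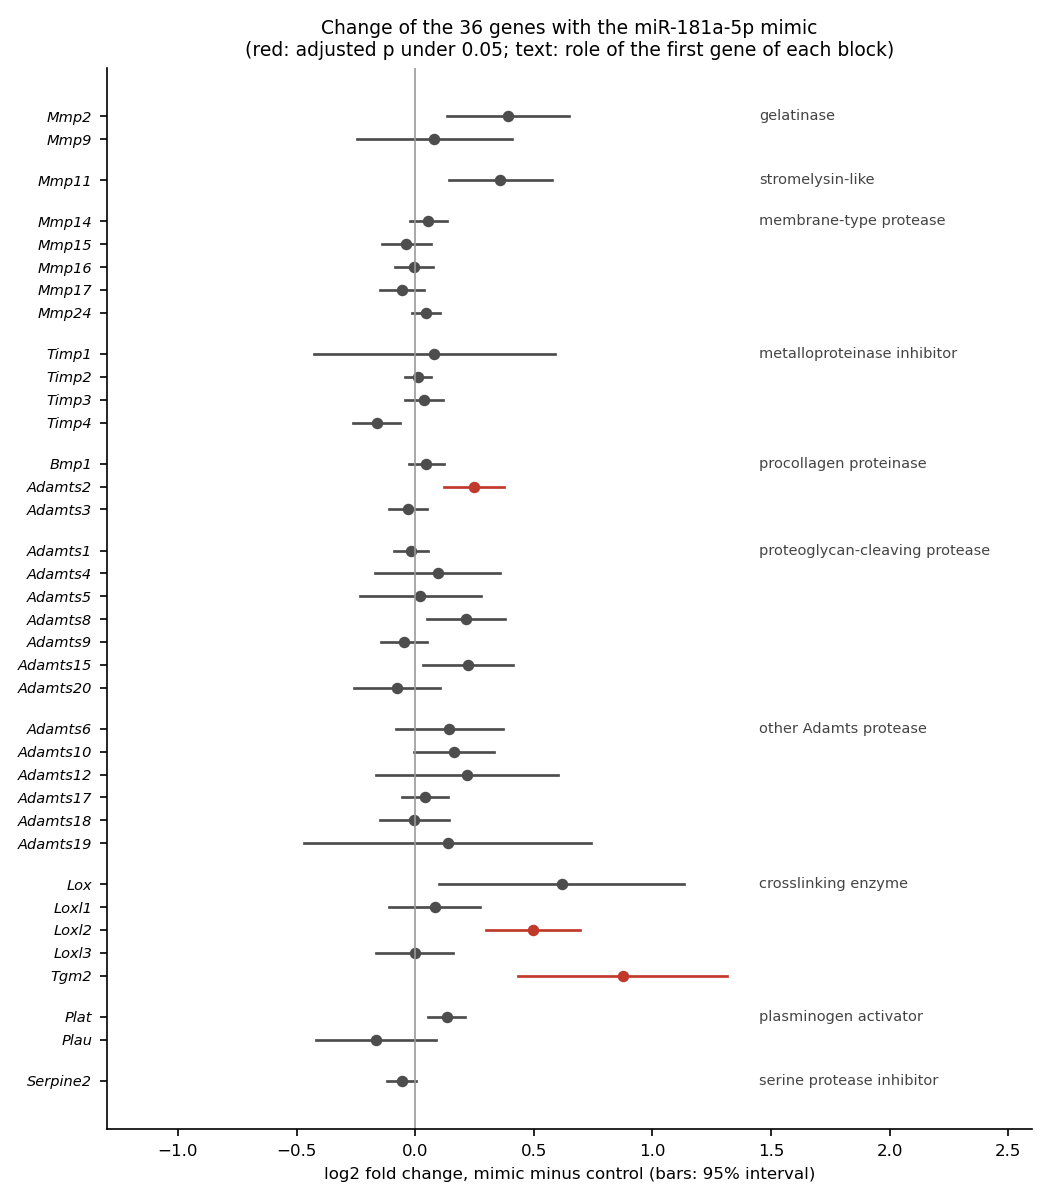
Log2 fold change (mimic minus control) of the 36 members with 95% intervals, ordered by role, with called genes in red. The intervals of Loxl2, Tgm2 and Adamts2 lie right of 0, and those of the membrane-type proteases and of Timp2 and Timp3 are short and cross 0. Wide intervals belong to sparsely counted genes such as Timp1 and Adamts19. They also belong to Lox (43 to 151 counts per sample) and Adamts12 (264 to 609), which varied between samples.

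The crosslinking enzymes held 2 of the 3 called members. Loxl2, which oxidises lysines of collagen and elastin so that they can crosslink (ENSMUSG00000034205, chr14:69609068-69695834, plus strand), was at 16.2, 14.6, 13.5, 15.1 and 16.7 CPM in mimic replicates 1 to 5, and at 8.18 to 12.3 CPM in controls with a median of 11.4. Every mimic sample was above every control sample, and the lowest control was replicate 1. The means were 15.2 ± 1.29 CPM (SD, n = 5) and 11.02 ± 1.49 CPM (SD, n = 6), and edgeR put the log2 fold change at 0.50 (SE 0.094, adjusted p = 0.0097). The fold was 1.41 with a 95% interval from 1.23 to 1.62. Without control replicate 1 the log2 fold change was 0.39, and Loxl2 was called in all 11 fits that left out a sample. The exons of Loxl2 overlap the annotated genes Gm27177 and Mir6950, and how reads on both were assigned is not stated.

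Tgm2, a calcium-dependent transglutaminase that joins glutamine and lysine residues of matrix proteins (chr2:158116402-158146436, minus strand), was sparsely counted, with 14 to 55 counts per sample. Its level with the mimic was 1.17, 1.25, 0.974, 2.19 and 1.66 CPM, against 0.589 to 1.18 CPM with a median of 0.822 in controls. Mimic replicates 2, 4 and 5 were above the highest control, and replicates 1 and 3 lay within the control range. The log2 fold change was 0.87 (SE 0.21, edgeR adjusted p = 0.024), a fold of 1.83 with a 95% interval from 1.35 to 2.49. The call was lost without mimic replicate 4 (log2 fold change 0.66, adjusted p = 0.12) and without control replicate 1 (0.74, adjusted p = 0.095), within a range of adjusted p over all alternatives from 0.00042 to 0.12. Exons of Tgm2 overlap Gm20412 and Rprd1b.

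Of the other lysyl oxidases, Lox, the founding member of the family, was the most variable. It was at 3.498, 4.82, 3.08, 5.86 and 7.15 CPM with the mimic and at 2.46 to 4.09 CPM, median 3.33, in controls. The upper 3 mimic samples were above all controls and the other 2 were among them. The log2 fold change of 0.62 (95% interval 0.10 to 1.13) had an edgeR adjusted p of 0.22. Loxl1, known for elastic fibre upkeep, and Loxl3 had log2 fold changes of 0.082 (95% interval -0.11 to 0.27) and -0.0024 (-0.16 to 0.16). Loxl2 was also the most abundant of the 4 lysyl oxidases per exon length. It made up 32.2% ± 3.03 (SD, n = 6) of their summed CPM per kb in controls and 37.6% ± 1.80 (SD, n = 5) with the mimic, with single controls reaching 37.0%, above the lowest mimic sample at 35.2%.

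**Figure D2:**
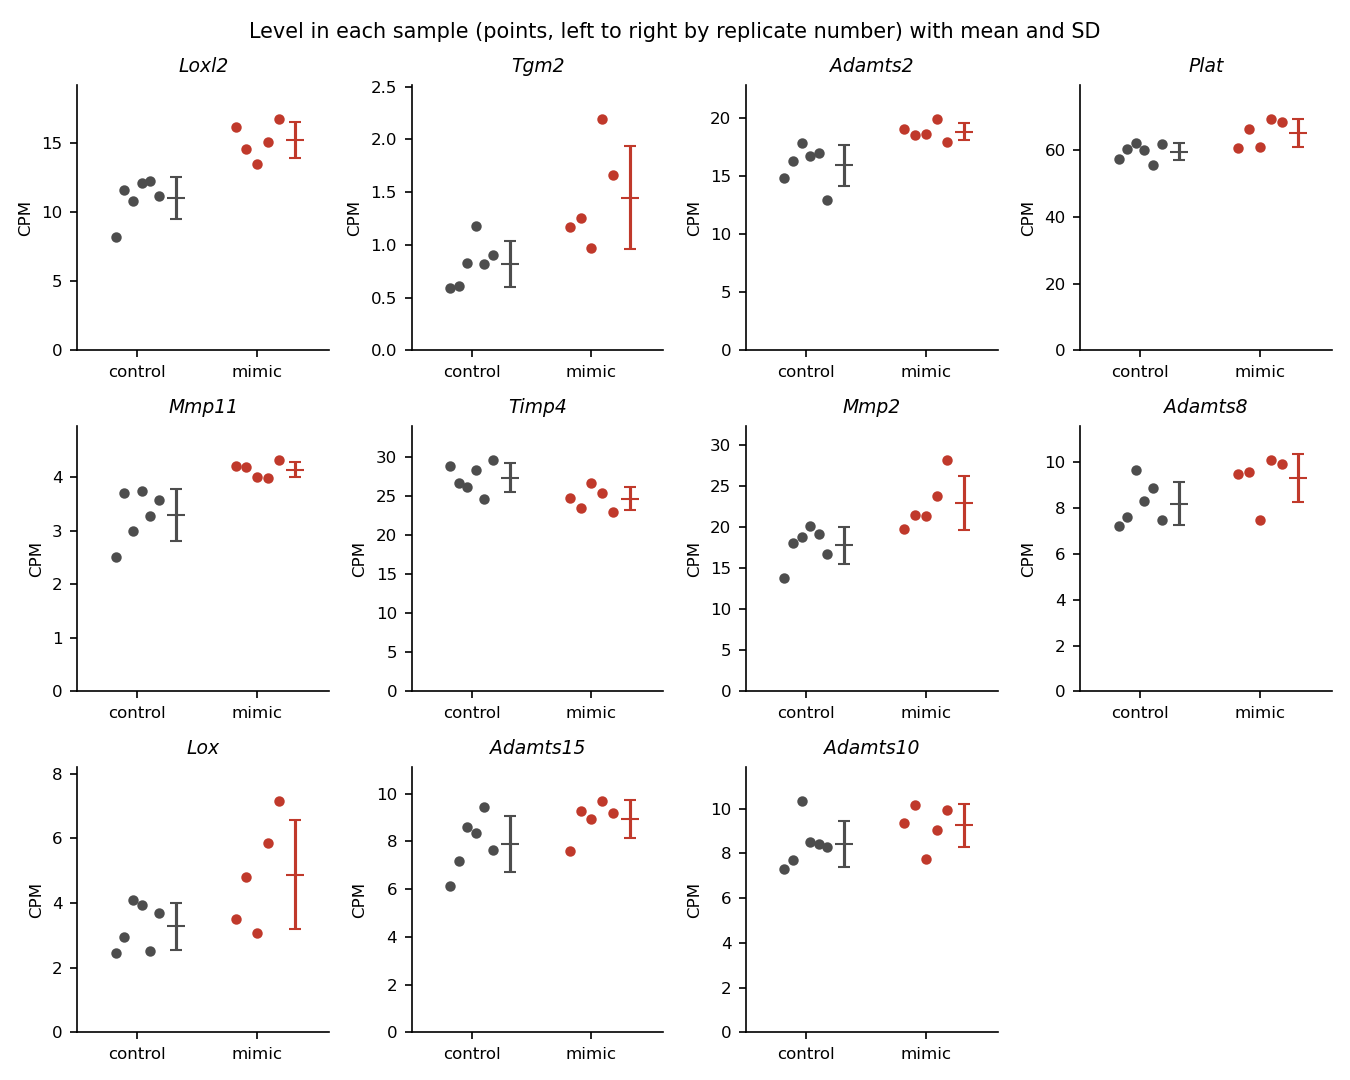
CPM of the 3 called members and the 8 with the next smallest p in each sample (points; control grey, mimic red), with the mean and SD at the right of each group and the axes starting at 0. Loxl2, Adamts2 and Mmp11 show no overlap between groups, Tgm2 and Lox spread widely among the mimic samples, and Timp4 is the one gene drawn whose mimic mean is lower.

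Of the procollagen proteinases, Adamts2 cuts the amino-terminal propeptide from fibrillar procollagens (ENSMUSG00000036545, chr11:50602084-50807573, plus strand). It was at 19.1, 18.5, 18.7, 19.9 and 17.96 CPM with the mimic and at 12.99 to 17.8 CPM, median 16.6, in controls. All 5 mimic samples were above all 6 controls, and the gap between mimic replicate 5 and control replicate 3 was small beside the spread of the controls. The means of 18.8 ± 0.727 CPM (SD, n = 5) and 16.0 ± 1.77 CPM (SD, n = 6) corresponded to 0.25 on the log2 scale by edgeR (SE 0.061, adjusted p = 0.024), a fold of 1.19 with a 95% interval from 1.089 to 1.297. The adjusted p was 0.091 without control replicate 1, 0.058 without mimic replicate 2 and 0.084 without mimic replicate 4, and over all alternatives it ran from 0.00072 to 0.091. Adamts3, which acts on procollagens and on reelin, was at 32.3 ± 1.72 CPM (SD, n = 6) in controls and 31.5 ± 0.583 CPM (SD, n = 5) with the mimic. Bmp1, which removes the carboxy-terminal propeptide, was at 40.1 ± 1.05 and 41.3 ± 1.72 CPM. The log2 fold changes of these genes, -0.030 (95% interval -0.11 to 0.051) and 0.047 (-0.026 to 0.12), missed the threshold.

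Of the secreted metalloproteinases among the members, Mmp2, Mmp9 and Mmp11, edgeR and DESeq2 called 0, and Mmp2 and Mmp11 were higher at an unadjusted p under 0.05. Mmp2, the gelatinase of many stromal cells, was at 19.8, 21.5, 21.3, 23.7 and 28.1 CPM with the mimic and at 13.8 to 20.0 CPM, median 18.4, in controls. All mimic samples except replicate 1 were above the controls. The log2 fold change was 0.39 (SE 0.12, edgeR adjusted p = 0.12), and with the replicate number as a block the adjusted p was 0.0018, within a range over all alternatives from 0.0018 to 0.22. Mmp9, the other gelatinase, was near 1 CPM and its log2 fold change of 0.080 had an interval from -0.25 to 0.41. Mmp11, a stromelysin-like protease that furin activates inside the cell, was at 4.21, 4.18, 4.00, 3.98 and 4.31 CPM with the mimic against 2.502 to 3.745 CPM, median 3.42, in controls. The groups did not overlap, and control replicate 1 was again the lowest. The log2 fold change was 0.36 (SE 0.11) with an edgeR adjusted p of 0.061, from 0.033 to 0.24 over the alternatives. Exons of Mmp11 overlap Chchd10.

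The membrane-type proteases, which act at the cell surface, were the steadiest group. Mmp14 (an activator of proMmp2), Mmp15, Mmp16, Mmp17 and Mmp24 had log2 fold changes between -0.054 and 0.055 and edgeR adjusted p-values between 0.50 and 0.97. Mmp24, the most abundant of them, was at 130 ± 4.03 CPM (SD, n = 6) in controls and 134 ± 4.91 CPM (SD, n = 5) with the mimic, with an interval of the log2 fold change from -0.014 to 0.11. Mmp24 shares exonic bases with BC029722. Mmp15 was at 87.3 ± 5.79 CPM (SD, n = 6) and 85.0 ± 6.05 CPM (SD, n = 5).

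Timp2, the inhibitor that blocks Mmp2 and with Mmp14 also takes part in its activation, dominated the inhibitors. It was at 1054, 959, 1009, 979 and 964 CPM with the mimic and at 939 to 1038 CPM, median 976, in controls. The groups overlapped over nearly their whole range, and the log2 fold change was 0.012 with a 95% interval from -0.043 to 0.068. Timp3, which binds to the matrix and whose 3′ UTR holds 2 seed matches, was at 48.4 ± 2.02 CPM (SD, n = 6) in controls and 49.5 ± 2.92 CPM (SD, n = 5) with the mimic. Timp1 was at 8 to 19 counts per sample, and its interval from -0.43 to 0.59 leaves its change unresolved at this depth. Timp4 was the one member on the lower side at an unadjusted p under 0.05, with 24.7, 23.5, 26.7, 25.4 and 23.0 CPM with the mimic and 24.6 to 29.6 CPM, median 27.5, in controls. Mimic replicates 2 and 5 were below all controls and the other 3 were within their range. The log2 fold change was -0.16 (SE 0.049, edgeR adjusted p = 0.067, from 0.015 to 0.20 over the alternatives). Timp3 and Timp4 lie within the synapsin genes Syn3 and Syn2 and share exonic bases with them, so their counts are uncertain where strand was not used.

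**Figure D3:**
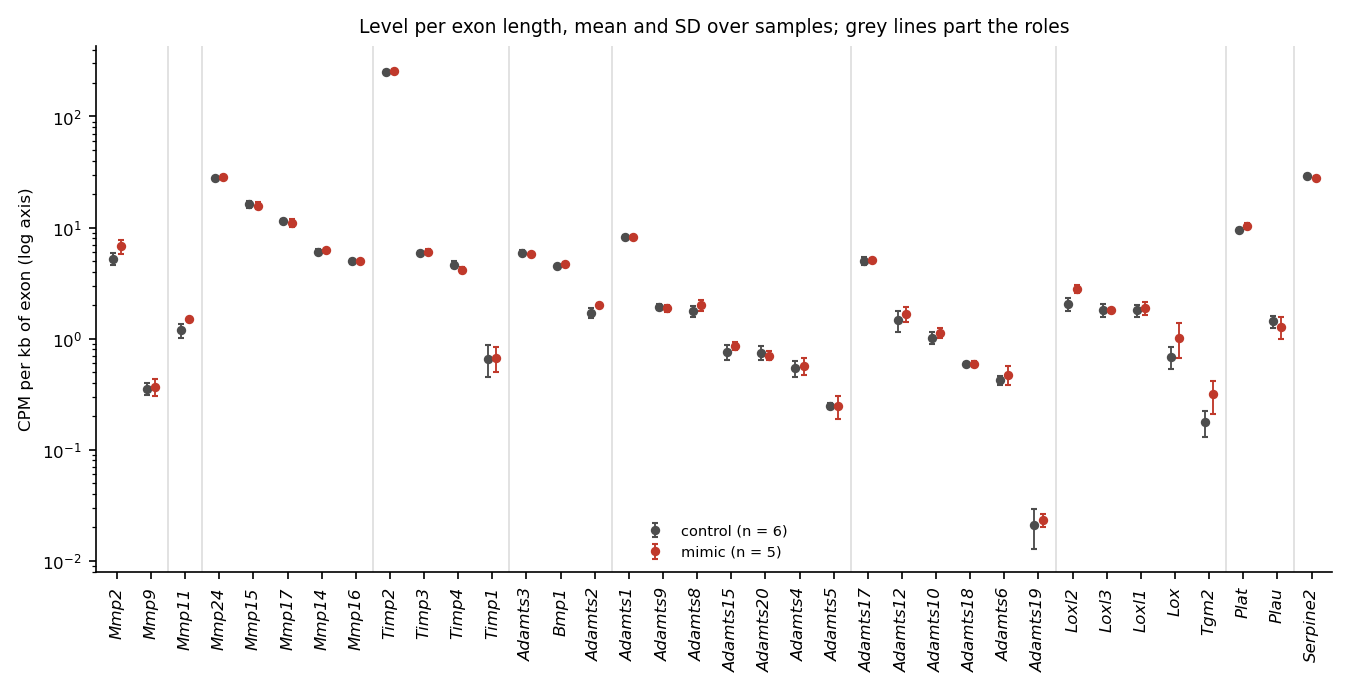
CPM per kb of exon (log axis) of each member in controls (grey, n = 6) and with the mimic (red, n = 5), as mean and SD, grouped by role and ordered by control level within a role. Timp2 stands above all other members, Serpine2 and Mmp24 follow, and the mimic and control means of most members lie within each other's SD.

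Per exon length, the order of levels was led by the inhibitors. In controls Timp2 was at 253 ± 8.78 CPM per kb (SD, n = 6), 60.3% of the summed CPM per kb of all members and 95.7% of that of the 4 Timp genes. Serpine2, a serine protease inhibitor that blocks thrombin and plasminogen activators, was second at 29.3 ± 1.20 CPM per kb. Mmp24 followed at 27.7 ± 0.860, Mmp15 at 16.2 ± 1.07 and Mmp17 at 11.5 ± 0.505 CPM per kb. Plat was sixth at 9.52 ± 0.417 CPM per kb. The called members ranked lower, with Loxl2 16th at 2.04 ± 0.276, Adamts2 21st at 1.71 ± 0.189 and Tgm2 35th at 0.178 ± 0.0469 CPM per kb. The lowest was Adamts19 at 0.0212 ± 0.00830 CPM per kb.

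Of the Adamts proteases that cut proteoglycans, 0 of 7 were called by edgeR or by DESeq2, and 2, Adamts8 and Adamts15, were higher at an unadjusted p under 0.05. Adamts1, Adamts4, Adamts5, Adamts8, Adamts9, Adamts15 and Adamts20 had log2 fold changes from -0.077 to 0.22 and edgeR adjusted p-values from 0.17 to 0.96. Adamts8 was at 9.48, 9.57, 7.46, 10.1 and 9.90 CPM with the mimic and at 7.21 to 9.65 CPM, median 7.95, in controls. Mimic replicate 3 lay among the low controls and only replicates 4 and 5 were above the highest one. Its log2 fold change was 0.21 (95% interval 0.048 to 0.38). Adamts15 was at 7.60, 9.27, 8.92, 9.68 and 9.19 CPM with the mimic and at 6.12 to 9.45 CPM, median 8.01, in controls. Just 1 mimic sample exceeded the highest control, and the log2 fold change was 0.22 (95% interval 0.032 to 0.41, adjusted p = 0.22). Adamts1, the most abundant of these 7 per length, was at 44.0 ± 1.01 CPM (SD, n = 6) and 43.4 ± 1.96 CPM (SD, n = 5), and Adamts5, a main aggrecan-cleaving enzyme, was at 2.67 ± 0.156 and 2.67 ± 0.622 CPM. Exons of Adamts8 overlap ENSMUSG00000111673, and those of Adamts9 overlap A730049H05Rik and Gm15737.

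Of the 6 remaining Adamts proteases, none was called by edgeR or by DESeq2, and 0 had an unadjusted p under 0.05. Adamts10, which binds fibrillin microfibrils, came nearest, with 9.38, 10.2, 7.73, 9.04 and 9.95 CPM with the mimic and 7.29 to 10.3 CPM, median 8.35, in controls. No mimic sample exceeded the highest control, and the log2 fold change was 0.16 (95% interval -0.0043 to 0.33, edgeR adjusted p = 0.34). In absolute CPM Adamts12 spread most, from 11.4 to 21.1 CPM in controls alone. Adamts17, another microfibril-associated member, had an interval from -0.057 to 0.14, and Adamts19, with 3 to 15 counts per sample, one from -0.47 to 0.74.

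Plat, tissue plasminogen activator, which turns plasminogen into plasmin and is made by neurons, was at 60.5, 66.3, 60.7, 69.2 and 68.2 CPM with the mimic and at 55.4 to 62.2 CPM, median 60.0, in controls. Mimic replicates 2, 4 and 5 were above all controls and replicates 1 and 3 were inside their range. The log2 fold change was 0.13 (SE 0.038) with an edgeR adjusted p of 0.056, from 0.016 to 0.16 over the alternatives, of which 6 of 18 passed the threshold. Plau, urokinase, was at 3.38 ± 0.409 CPM (SD, n = 6) in controls and 3.04 ± 0.684 CPM (SD, n = 5) with the mimic, with an interval of the log2 fold change from -0.42 to 0.088. Serpine2 was at 243 ± 9.91 CPM (SD, n = 6) and 233 ± 9.30 CPM (SD, n = 5), with an interval from -0.12 to 0.0045.

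The members on the study's list of predicted targets were set beside the others. Of the 8, 0 were called, with 1 at an unadjusted p under 0.05 (Lox, higher), and DESeq2 also called 0. Their median log2 fold change was 0.030, with 5 above 0 and 3 below, while that of the other 28 members, which include the 3 called ones, was 0.080. By sequence alone, the 11 members with a seed match had a median of -0.0032 and the 25 without one a median of 0.082. Over all tested genes with a 3′ UTR these medians were -0.024 with a match and 0.0055 without. Loxl2, Tgm2 and Adamts2 held 0 matches in the window searched. Adamts6, with 2 matches, had a log2 fold change of 0.14 (95% interval -0.082 to 0.37), Adamts1, also with 2, was at -0.017 (-0.089 to 0.054), and Adamts18 was at -0.0032 (-0.15 to 0.14).

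The other genes of these pathways moved in both directions. Of 20 tested further family members (26 listed), 1 was called: Mmp12, macrophage elastase, was at 2.90 ± 0.514 CPM in the 6 controls and fell to 1.54 ± 0.565 CPM (mean and SD), which edgeR put at -0.94 on the log2 scale (SE 0.17, adjusted p = 0.0048). Of 23 tested activators, cofactors, receptors and other inhibitors (25 listed), 1 was higher and 1 lower. Pcolce, which enhances the cut that Bmp1 makes in procollagen, rose from 6.52 ± 1.06 to 9.40 ± 1.00 CPM (log2 fold change 0.56, edgeR adjusted p = 0.0090). A2m, a broad inhibitor that traps proteases, fell from 43.8 ± 0.891 to 39.7 ± 2.70 CPM (log2 fold change -0.14, edgeR adjusted p = 0.047). The medians of these lists were 0.10 and -0.015.

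Matrix substrates were measured by 25 genes, all tested. Of these, 3 were called, all higher: the laminin chain Lama4 with a log2 fold change of 0.61 (8.36 ± 1.23 to 12.4 ± 1.04 CPM, edgeR adjusted p = 0.0039), the laminin chain Lamb1 with 0.18 (103 ± 5.93 to 116 ± 5.85 CPM, adjusted p = 0.015), and the basement membrane collagen Col4a2 with 0.18 (143 ± 9.18 to 161 ± 7.83 CPM, adjusted p = 0.029). By edgeR at an unadjusted p under 0.05, 16 were higher (64%) and 3 lower (12%), against 7.30% and 8.41% of all tested genes. The 3 lower were Ncan (log2 fold change -0.087, 1067 to 1005 CPM), Bcan (-0.12, 206 to 189 CPM) and Tnc (-0.13). Ncan was the most abundant gene of the list. DESeq2 called 11 higher and 0 lower, and the median log2 fold change of the 25 substrates was 0.18.

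Markers of fibroblasts, cells that make much of the collagen-processing machinery, were higher with the mimic, as the called members were. All 12 fibroblast markers had log2 fold changes above 0 and an unadjusted p under 0.05, and 1, the transcription factor Foxc1, was called (0.30, edgeR adjusted p = 0.047), while DESeq2 called 5, all higher. Their summed level was 399 to 626 CPM in controls and 651 to 870 CPM with the mimic, so the groups did not overlap. It was lowest in control replicate 1, which also had the lowest Loxl2, Tgm2, Lox, Mmp2 and Mmp11, and none of the 12 was at 0 in any sample. Adamts2 did not follow the sum from sample to sample: its lowest control was replicate 6 (12.99 CPM, marker sum 573 CPM), and its lowest mimic sample was replicate 5 (17.96 CPM), which had the highest sum. The list shares 0 genes with the members and 4 with the matrix substrates, whose remaining 21 genes kept a median of 0.18. Per 100 CPM of the summed fibroblast markers, Loxl2 was at 1.93 to 2.29 CPM in controls and 1.92 to 2.45 with the mimic, Adamts2 at 2.26 to 3.72 and 2.06 to 2.89, and Tgm2 at 0.120 to 0.188 and 0.149 to 0.284, with overlapping groups for each. More cells of a type and more RNA per cell cannot be told apart in bulk samples, and the part of the fibroblast markers in these results was not tested.

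**Figure D4:**
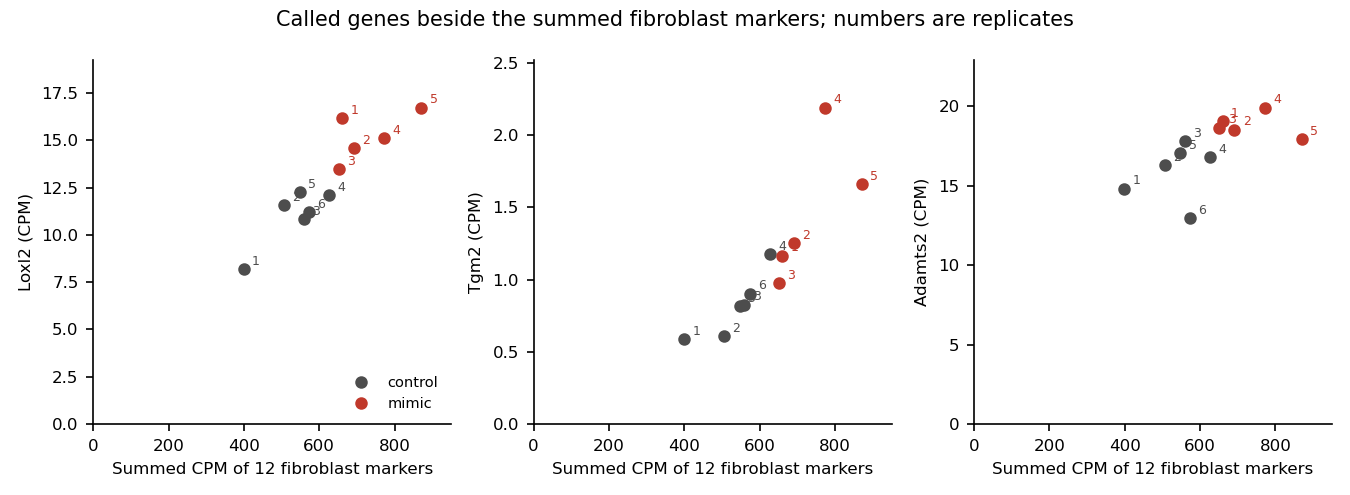
CPM of Loxl2, Tgm2 and Adamts2 (vertical axes, from 0) against the summed CPM of 12 fibroblast markers (horizontal axis) in each of the 6 control (grey) and 5 mimic (red) samples, numbered by replicate. The marker sum is 399 to 626 CPM in controls and 651 to 870 CPM with the mimic. Control replicate 1 has the lowest sum and the lowest Loxl2 and Tgm2. Among controls, Adamts2 is lowest in replicate 6, followed by replicate 1. Among the mimic samples, Adamts2 is lowest in replicate 5, which has the highest sum.

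Markers of other cell types were measured in the same way. The summed level of 8 endothelial markers was 34.0 to 42.0 CPM in controls and 35.1 to 43.9 with the mimic, with Cldn5 and Tek at 0 in at least 1 sample. Most of that sum was Kdr (34.8 CPM in controls and 35.4 with the mimic). All 6 tested had log2 fold changes above 0, and Cdh5 was called higher (log2 fold change 0.77, edgeR adjusted p = 0.0071). Cdh5 was the only 1 with an unadjusted p under 0.05, and the rest ran from 0.0010 (Emcn) to 0.26 (Esam). Of 8 mural cell markers, Kcnj8, Abcc9 and Des were at 0 in at least 1 sample. Of the 5 tested, Rgs5 was called lower (-0.66, adjusted p = 0.023). At an unadjusted p under 0.05, 1 was higher (Tagln, log2 fold change 0.23) and 1 lower (Rgs5). The summed level of the 8 mural markers was 35.4 to 40.3 CPM in controls and 30.2 to 35.9 with the mimic. For 10 microglia markers it was 26.5 to 28.7 and 25.6 to 27.3 CPM with 0 called by edgeR or DESeq2, 1 higher and 1 lower at an unadjusted p under 0.05. In the oligodendrocyte lineage (9 markers, Mag at 0 in at least 1 sample) it was 315 to 381 and 288 to 331 CPM with 0 called by edgeR, 1 called lower by DESeq2 and 3 lower at an unadjusted p under 0.05. The astrocyte transporter Slc1a2 (-0.18, adjusted p = 9.9e-05) and the neuronal genes Slc17a7 (-0.14, adjusted p = 0.024) and Camk2a (-0.091, adjusted p = 0.030) were called lower. At an unadjusted p under 0.05, 5 of 9 astrocyte and 6 of 11 neuron markers were lower and 0 of either list higher, and the summed levels of both lists given above did not overlap between the groups. The part of these shifts in the members' values was not tested.

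The calls rested on single samples to different degrees. Over the 11 fits that each left out a sample, 1 to 5 members were called higher and 0 or 1 lower. Without control replicate 1 and without mimic replicate 4, Loxl2 alone remained among the 3, and the calls over all genes fell from 495 to 218 and 278. Without mimic replicate 3, Timp4 was called lower (log2 fold change -0.18, adjusted p = 0.048, from 0.015 to 0.20 over the alternatives) and 5 members were called higher: Loxl2, Tgm2, Adamts2, Plat (adjusted p = 0.027, from 0.016 to 0.16 over the alternatives) and Adamts8 (0.046, from 0.046 to 0.41).

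**Figure D5:**
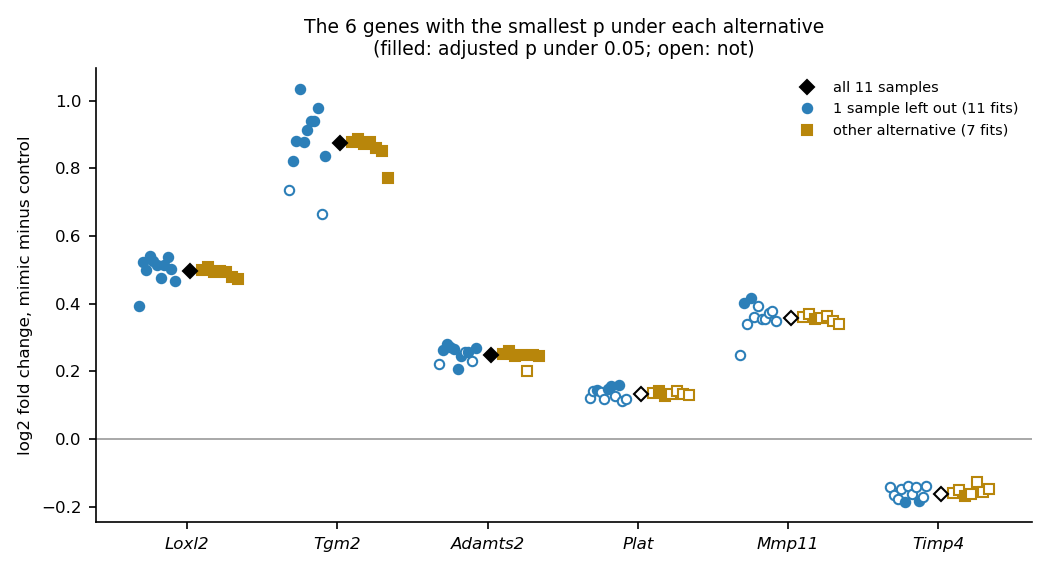
Log2 fold change of the 6 members with the smallest p in the fit on all 11 samples (black diamonds), in fits that leave out 1 sample (blue circles) and under 7 other alternatives (gold squares). Filled symbols have an adjusted p under 0.05: Loxl2 is filled throughout, Tgm2 loses 2 of its circles, Adamts2 loses 3 circles and 1 square, and Plat, Mmp11 and Timp4 are filled in 6, 3 and 3 of 18.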

How the data were processed

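RNA-seq of 6 control and 5 mimic samples was used, grouped by title. Per the labels, poly(A) RNA libraries (TruSeq v2) were read as 50-base single ends; the submitters' processing notes and the study's methods name FastQC 0.11.5, STAR 2.5.2b on mm10 and featureCounts of Subread 1.5.1. The authors deposited raw counts per Ensembl gene and sample, and a table of normalized signal (counts divided by a size factor) that held 16921 genes and was used for 1 alternative. The annotation release, strand setting and treatment of reads that map to several places are not given in the sources used here. Of 48709 genes, 48349 were in GENCODE M21, which gave symbols, positions and lengths. 0 rows named no gene.

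Genes with at least 5 counts in 50% of the samples (17365) were tested with edgeR 4.0.16 (quasi-likelihood, TMM, two-sided, R 4.3.3), adjusted by Benjamini-Hochberg over all of them, and tested on simulated data with 200 changed genes. The study used DESeq2 (here 1.42.0, an alternative). SEs are the log2 fold change over the square root of F. Other alternatives were RLE and upper-quartile factors, no count filter, a filter of 1 CPM in 5 samples, leaving out each sample, the replicate number as a block, and limma 3.58.1 on log2(normalized value + 1). The lowest correlation of log2 CPM between replicates was 0.993, and no pair agreed within sampling noise (lowest chi-square per degree of freedom 1.23). Intervals cover the spread between samples, and the depth of 17287168 to 48091231 counts limits genes under about 1 CPM.

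Members, gene lists and tests were chosen with earlier results of these data known. Values in every sample are given for called members and the 8 with the next smallest p, predicted targets are named whatever their p, and at most 4 called genes (smallest p) are named from each other list. RefSeq gave the mature miRNA, and the oligonucleotides came from the study's supplement. 3′ UTRs were the bases after the stop codon of protein-coding transcripts.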

Additional observations from a re-analysis of the deposited data

Results flagged for a closer look

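In 4 of 72 sets of values (36 members in each group), 1 sample lay apart from the others of its group by Dixon's ratio, the gap to the nearest sample over the group's range on the log2 CPM scale. Chance gives about 1 in 20, which is 3.6 of 72. Loxl2 in controls was flagged with a ratio of 0.697 because control replicate 1, at 8.18 CPM, lay below the next sample at 10.8 CPM. Adamts8 with the mimic was flagged with a ratio of 0.796 because mimic replicate 3, at 7.46 CPM, lay below the next at 9.48 CPM. Adamts4 with the mimic was flagged with a ratio of 0.720, again for mimic replicate 3, at 1.95 CPM against 2.71 CPM. Mmp15 with the mimic was flagged with a ratio of 0.735 because mimic replicate 5, at 74.6 CPM, lay below the next at 86.0 CPM.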

How the results depend on the processing

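Of 646 values of members recomputed under 18 alternatives (17 for Timp1 and Adamts19, which the filter of 1 CPM removed), 591 kept their direction and their side of the threshold. Without the count filter 5 members were called higher and 1 lower (Timp4), with 785 genes called. With the replicate number as a block (control replicate 6 has no partner) 328 genes were called, with Loxl2, Tgm2 and Mmp2 as members and Adamts2 at an adjusted p of 0.057. Deviations of same-numbered samples correlated at -0.023 to 0.016 (5 pairs), within the range of other pairs at -0.073 to 0.078. Whether the values of the members alone pair by number was not tested. Leaving out a sample gave 1 to 5 members called higher, 0 to 1 lower and 218 to 491 genes called (237 without mimic replicate 2); the lower call was Timp4 without control replicate 5 and without mimic replicate 3. DESeq2 called 564 genes and limma, run on the normalized values, called 406. The fit on all 11 samples called 307 genes lower and 188 higher. The balance turned with upper-quartile factors (226 lower, 234 higher), with the block (154 and 174) and without control replicate 4 (199 and 201). In all other alternatives more genes were lower.

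Members near 0 changed sign and were called in none of these fits. With upper-quartile factors Mmp16 was at 0.0044, Adamts18 at 0.0076 and Loxl3 at 0.0082; under the block Mmp16 was at 0.023, Adamts5 at -0.00064 and Loxl3 at 0.017; on the normalized table Mmp16 was at 0.00059, Adamts5 at -0.031 and Loxl3 at 0.0054. Leaving out samples, the log2 fold change ran from -0.036 to 0.0078 for Adamts1, from -0.038 to 0.014 for Adamts18, from -0.082 to 0.13 for Adamts5, from -0.048 to 0.058 for Loxl3, from -0.059 to 0.0081 for Mmp15, from -0.024 to 0.018 for Mmp16, from -0.079 to 0.19 for Timp1 and from -0.0091 to 0.028 for Timp2. The causes were not tested.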
